A study of Arabidopsis thaliana with 6 samples.

Results

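The gibberellin 2-oxidases described here are 7 genes of the Arabidopsis thaliana genome that were taken by locus from the 32833 genes of the count table: GA2OX1 (AT1G78440), GA2OX2 (AT1G30040), GA2OX3 (AT2G34555), GA2OX4 (AT1G47990), GA2OX6 (AT1G02400), GA2OX7 (AT1G50960) and GA2OX8 (AT4G21200). RefSeq lists all 7 loci under these names or synonyms. They were followed by RNA sequencing in roots of wild-type Col-0 seedlings, 3 days after germination. One group had been kept for 1 h in liquid half-strength Murashige and Skoog medium containing IAA, the natural auxin indole-3-acetic acid, at 1 µM, and the other for the same time in that medium without IAA (mock). There were 3 libraries per group, each from about 100 pooled roots of whole seedlings, called biological replicates by the submitters. No label says whether they were grown and treated apart, so p-values measure the spread between these libraries, which may be partly technical. A root pool holds all root tissues, so a change per cell and a change in the number of cells with the transcript cannot be told apart.

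Gibberellins are diterpenoid hormones that promote cell elongation, in roots mainly through the degradation of DELLA repressors. A gibberellin 2-oxidase adds a hydroxyl group to the hormone or to its precursor and so inactivates it. In Arabidopsis GA2OX1, GA2OX2, GA2OX3, GA2OX4 and GA2OX6 act on the bioactive hormones and their immediate precursors, the forms with the shorter carbon skeleton. GA2OX7 and GA2OX8 belong to a separate class that takes the earlier precursors with an extra carbon, and plants that overexpress either of them are dwarfed. The level of active hormone is set between these enzymes and the 20-oxidases and 3-oxidases of synthesis, and auxin is known to alter transcripts of all these families in Arabidopsis seedlings.

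The libraries held between 20808439 and 20984444 counts, so 1 count was worth 0.0469 to 0.0492 CPM, a unit that scales each library to the same total after TMM factors for its composition. The auxin-conjugating enzyme gene GH3.3, an early auxin target, stood at 985 ± 66.8 CPM in IAA libraries and 5.25 ± 1.05 CPM in mock libraries (SD, n = 3 each). All 9 root markers, among them SHR, SCR and CASP1, had counts in every library, and they summed to 0.0637% to 0.0748% of counts in IAA libraries and 0.0556% to 0.0601% in mock libraries (2-sided exact permutation p = 0.1, the smallest possible with 3 against 3). Of these markers WOX5 (1.9-fold, edgeR adjusted p = 0.0272) and EXPA7 (1.53-fold, 0.00828) were themselves higher with IAA, and 0 of the 9 passed the same test as lower. Transcripts of 10 photosynthesis genes were present in every library too, at 0.0326%, 0.107% and 0.038% of counts in IAA libraries 1 to 3 and at 0.203%, 0.0349% and 0.309% in mock libraries 1 to 3 (exact permutation p = 0.3). IAA 1 stood apart from the other IAA libraries in several genes of gibberellin metabolism, which are given where they arise. The difference was not limited to these genes. A chi-square of count differences between libraries, averaged per gene, was 33.6 and 43 for IAA 1 against IAA 2 and IAA 3. It was 13.8 between IAA 2 and IAA 3. Among mock libraries it was 13.8 between mock 1 and mock 2, and 25.8 and 34 for mock 3 against them.

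Within 1 h of IAA, GA2OX8 and GA2OX6 rose and no other member passed the test. Of the 7 members, 5 passed the low-count filter and 2 were called higher and 0 lower (edgeR quasi-likelihood, p under 0.05 after Benjamini-Hochberg adjustment over 19778 genes). Over all genes tested, 3.24% were called higher, 0.991% lower and 4.23% in either direction by the same rule. The IAA and mock values did not overlap in 4 of the 5 members tested, GA2OX8, GA2OX6, GA2OX1 and GA2OX2, and in 22.1% of all genes tested. Before adjustment 3 members had a higher and 1 a lower level with p under 0.05, beside 9.88% and 7.57% of all genes tested. DESeq2 called 3 members higher and 0 lower, beside 5.14% and 2.63% of the 21319 genes it gave an adjusted p. With limma-voom 2 members were called higher and 0 lower, beside 3.04% and 0.88% of all genes tested.

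The bases before the annotated starts of GA2OX8, GA2OX6 and GA2OX1 are shown because these genes had the 3 largest log2 changes among the members tested. They come from RefSeq for TAIR10.1, read 5′ to 3′ on the strand of the gene, and capitals mark a match to an auxin response element, TGTCTC or TGTCGG, or to the G-box, CACGTG. The windows of 250 bases are chr4:11302432-11302681 (plus strand), chr1:486550-486799 (plus strand) and chr1:29513101-29513350 (minus strand).
GA2OX8: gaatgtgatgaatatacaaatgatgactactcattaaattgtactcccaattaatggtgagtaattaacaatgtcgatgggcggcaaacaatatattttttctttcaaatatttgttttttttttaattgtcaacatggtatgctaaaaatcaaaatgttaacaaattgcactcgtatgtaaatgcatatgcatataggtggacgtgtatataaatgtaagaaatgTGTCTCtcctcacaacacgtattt
GA2OX6: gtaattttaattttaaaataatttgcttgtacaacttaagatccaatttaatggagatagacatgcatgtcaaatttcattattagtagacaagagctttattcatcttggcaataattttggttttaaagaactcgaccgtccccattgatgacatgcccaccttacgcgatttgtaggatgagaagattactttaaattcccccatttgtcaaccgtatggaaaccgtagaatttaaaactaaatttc
GA2OX1: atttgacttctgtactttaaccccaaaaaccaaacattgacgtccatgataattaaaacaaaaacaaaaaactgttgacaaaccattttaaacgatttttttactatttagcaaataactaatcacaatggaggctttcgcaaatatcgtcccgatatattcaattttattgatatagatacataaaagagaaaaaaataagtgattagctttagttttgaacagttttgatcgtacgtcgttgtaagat
Both strands were searched from 250 bases before to 50 bases after each start. GA2OX8 held 1 TGTCTC, which begins 24 bases before the start, and GA2OX4 held 1 CACGTG, 90 bases before it. The other 5 members held none of the 3 motifs in that window, and GA2OX6, which rose, was one of them. Of 27443 protein-coding genes, 14.2% held TGTCTC, 5.12% TGTCGG and 7.68% CACGTG in the same window. TGTCTC and TGTCGG begin with the same letters, and the G-box reads the same on both strands. In the 1000 bases before the start the only further match was a CACGTG in GA2OX7, 580 bases upstream, while 48.3% of genes held TGTCTC or TGTCGG there. A match in such a window is a description of the letters and not of a site in use.

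GA2OX8, an enzyme gene of the precursor class on chromosome 4 from 11302682 to 11306770, had 358, 306 and 339 counts in the IAA libraries and 28, 22 and 17 counts in the mock libraries. These were 16.9, 14.8 and 16.7 CPM with IAA and 1.31, 1.04 and 0.817 CPM in mock. The groups were far apart, and the lowest IAA library lay above the highest mock library. The log2 change was 3.92 (SE 0.20, edgeR adjusted p = 9.81e-05), a 15.2-fold difference. By the size of the fitted log2 change GA2OX8 came 34th of the 19778 genes tested. In the authors' deposited table its log2 change was 3.93 (SE 0.26).

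GA2OX6, on chromosome 1 from 486800 to 489651, was the most abundant member, and RefSeq also lists it as DTA1, a downstream target of the MADS-box factor AGL15. It had 67.1, 69.6 and 70.3 CPM in the IAA libraries and 21.6, 21.2 and 18.5 CPM in the mock libraries. The groups did not overlap, and the IAA libraries were close to one another. The log2 change was 1.76 (SE 0.10, edgeR adjusted p = 0.000124), a 3.38-fold difference. The 3 IAA counts, 1421, 1442 and 1431, gave a coefficient of variation of 2.45% after scaling, beside 2.64% from counting error alone. In mock libraries that spread was 8.21%, beside 4.81% from counting error.

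**Figure D1:**
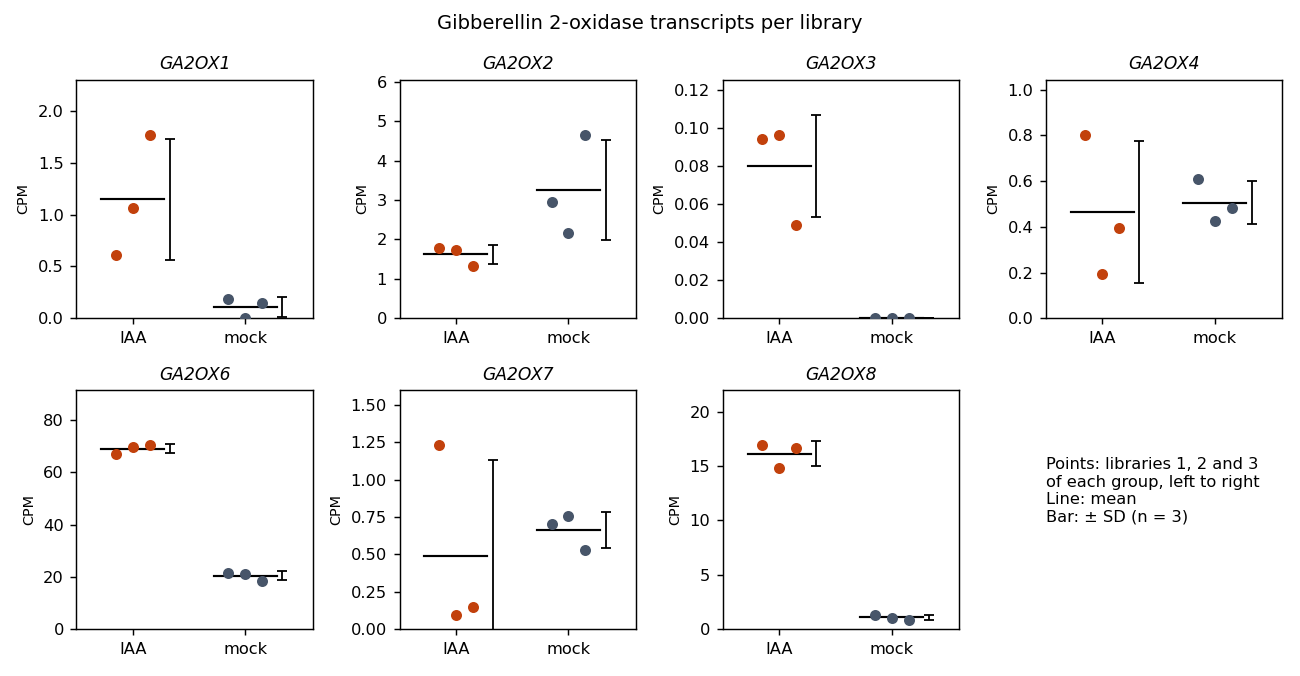
CPM of each gibberellin 2-oxidase gene (vertical axis from 0, its own scale per gene) in the 3 IAA and 3 mock libraries, as points, with the mean as a line and the SD as a bar. IAA and mock points are well apart for GA2OX8 and GA2OX6, while in GA2OX7 the library IAA 1 lies at 1.23 CPM above all others.

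The 2 called members were set against each other within each library. The log2 ratio of GA2OX8 to GA2OX6 counts, with 0.5 added to each, was -1.99, -2.23 and -2.08 in the IAA libraries and -4.02, -4.32 and -4.46 in the mock libraries. The ratio was 2.17 log2 units higher with IAA, or 4.49-fold, and did not overlap between groups (2-sided exact permutation p = 0.1, the smallest that 3 against 3 libraries allow, so a threshold of 0.05 could not be met). This was the only pair of called members, so 1 comparison was made, and it does not depend on how libraries are scaled. Both members were picked as called in these same libraries, with fitted log2 changes of 3.92 and 1.76. The comparison is therefore a description, and its p-value adds no separate support.

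GA2OX1, on the minus strand of chromosome 1 from 29511561 to 29513100, was close to the detection limit in mock and higher in every IAA library, but did not pass the test. It had 13, 22 and 36 counts in the IAA libraries and 4, 0 and 3 counts in the mock libraries. All IAA libraries lay above all mock libraries. The log2 change was 3.31 (SE 0.74, edgeR adjusted p = 0.0532). The summed counts, 71 with IAA against 7 in mock, gave a ratio of 10.3 with an exact 95% interval of 4.76 to 26.6 that covers counting error only. The call depended on the tool and on 1 library. The authors' deposited table gives a log2 change of 3.38 (SE 0.90) with an adjusted p of 0.00417, DESeq2 on the counts gave an adjusted p of 0.004, edgeR without the low-count filter gave 0.038, and edgeR without IAA 1 gave 0.0215. Over the other 5 libraries left out in turn the edgeR adjusted p was 0.0977 to 0.157.

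GA2OX2, whose product inactivates active gibberellins, had 1.79, 1.74 and 1.33 CPM in the IAA libraries and 2.95, 2.17 and 4.66 CPM in the mock libraries. Every IAA value was below every mock value, and mock 3 was the highest library. The log2 change of -1.01 (SE 0.33) was not called (edgeR adjusted p = 0.157). Mock 3 was also the library with the largest share of photosynthesis transcripts and mock 2 the mock library with the smallest. The IAA libraries did not show that order. IAA 2 had the largest share among them, 0.107% beside 0.0326% in IAA 1 and 0.038% in IAA 3, but less GA2OX2 than IAA 1. Mock 2, at 0.0349%, had a smaller share than IAA 2 but more GA2OX2. With that share as a term in the fit the log2 change of GA2OX2 was -0.61 (adjusted p = 0.388), and without mock 3 it was -0.66 (adjusted p = 0.27). The cause of the GA2OX2 difference was not tested.

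GA2OX7, the other member of the precursor class and known as a target of the salt-stress factor DDF1, split the IAA group. It had 1.23, 0.0966 and 0.147 CPM in IAA libraries 1 to 3, from 26, 2 and 3 counts, and 0.703, 0.755 and 0.529 CPM in mock libraries 1 to 3, from 15, 16 and 11 counts. IAA 1 was the highest of all 6 libraries, and IAA 2 and IAA 3 were below every mock library. The log2 change was -0.42 (SE 0.83, edgeR adjusted p = 0.868) and was not called. Without IAA 1 it was -2.39 and called lower (edgeR adjusted p = 0.043), and without IAA 2 or IAA 3 it was 0.06 or 0.01. The sign and the call of GA2OX7 thus depended on the IAA libraries used.

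GA2OX4 and GA2OX3 were too low for the filter and were not tested. GA2OX4, which like GA2OX2 is known from the base of the shoot meristem, had 17, 4 and 8 counts with IAA and 13, 9 and 10 counts in mock, and the groups overlapped. Its summed counts stood at a ratio of 0.922, and the exact 95% interval from counting was 0.538 to 1.57. GA2OX3, the member closest in coding sequence to GA2OX2, had 2, 2 and 1 counts with IAA and 0 in each mock library. Against a floor of 3 counts over the mock group the ratio was 1.7, but the exact 95% interval of the ratio from counting began at 0.933, so a difference was not detectable at this depth. With no low-count filter neither was called (adjusted p = 0.286 for GA2OX3 and 0.956 for GA2OX4).

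**Figure D2:**
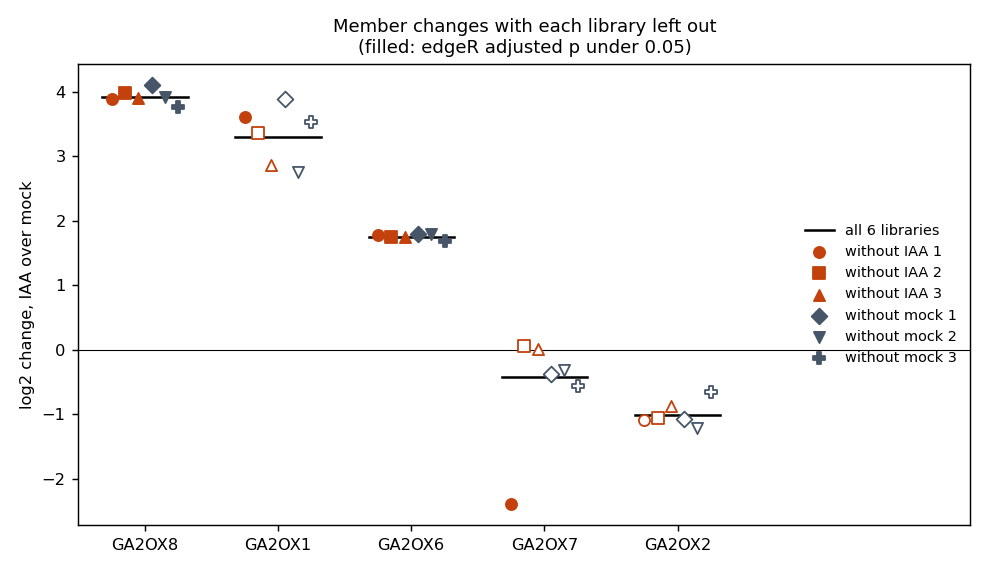
Log2 change, IAA over mock, of the 5 members tested, with all 6 libraries (line) and with each library left out in turn (symbols, filled where the edgeR adjusted p was under 0.05). GA2OX8 stayed between 3.77 and 4.11 and GA2OX6 between 1.69 and 1.80, always called, while GA2OX7 went down to -2.39 without IAA 1.

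Per kilobase of exon GA2OX6 had by far the highest level of the members in both groups. In IAA libraries the order of mean levels was GA2OX6 (46.1 ± 1.13 CPM per kilobase), GA2OX8 (10.8 ± 0.786), GA2OX1 (0.876 ± 0.444), GA2OX2 (0.68 ± 0.107), GA2OX7 (0.407 ± 0.53), GA2OX4 (0.376 ± 0.253) and GA2OX3 (0.0617 ± 0.0206; SD, n = 3). From GA2OX1 to GA2OX4 in that order, each member's libraries overlapped those of its neighbour. In mock libraries GA2OX6 stood at 13.6 ± 1.12 CPM per kilobase, GA2OX2 at 1.37 ± 0.536, GA2OX8 at 0.711 ± 0.167, GA2OX7 at 0.549 ± 0.0981, GA2OX4 at 0.41 ± 0.077 and GA2OX1 at 0.0843 ± 0.0749, with no GA2OX3 count. There the libraries of GA2OX8 overlapped those of GA2OX7, and those of GA2OX7 overlapped those of GA2OX4. GA2OX8 stood below GA2OX2 in mock and above it in the IAA libraries.

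Summed over the 7 members, the level was 59.2, 58.3 and 60.6 CPM per kilobase in the IAA libraries and 17.8, 16.7 and 15.8 in the mock libraries, 3.54-fold apart in the means. This sum is a description and was not tested, as its members were chosen with results known. GA2OX6 supplied 77.7% ± 2.01 of it with IAA and 81.3% ± 3.19 in mock (SD, n = 3). The share of GA2OX8 was 18.3% ± 1.11 with IAA and 4.21% ± 0.745 in mock, and that of GA2OX2 was 1.15% ± 0.198 with IAA and 8.27% ± 3.64 in mock. Among the 7 members, those of the precursor class, GA2OX7 and GA2OX8, summed to 12.4, 10 and 11.3 CPM per kilobase in the IAA libraries. In the mock libraries they summed to 1.47, 1.32 and 0.989, 8.93-fold apart in the means. The other 5 members summed to 48.1 ± 1.25 with IAA and 15.5 ± 0.75 in mock, 3.1-fold apart. These sums and shares hold the 7 members only. AT5G58660, listed with other inactivating enzymes from background knowledge, was not in them. It stood at 14.3 ± 3.29 CPM per kilobase with IAA and 10.9 ± 0.646 in mock (SD, n = 3). Its mean was above that of GA2OX8 in both groups.

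**Figure D3:**
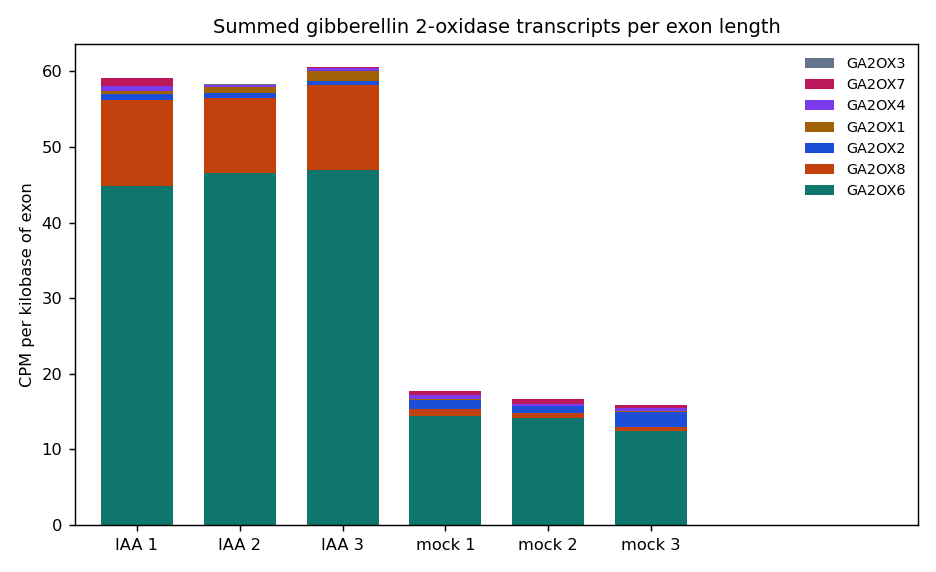
CPM per kilobase of exon of the 7 gibberellin 2-oxidase genes, stacked, in each IAA and mock library. The IAA bars reach 58.3 to 60.6 and the mock bars 15.8 to 17.8, with GA2OX6 the largest part of every bar and GA2OX8 clearly visible in the IAA bars.

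In coding sequence the members were 61.1% to 76.5% identical, with GA2OX2 and GA2OX3 the closest pair, and GA2OX7 and GA2OX8 shared 62.6% over 968 aligned bases. No pair shared an identical stretch of 30 bases in its coding sequence, and no annotated gene overlaps a member on either strand. The coding sequences run from 966 bases in GA2OX4 to 1026 bases in GA2OX2.

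The genes whose values over the 6 libraries were most like those of the called members were found by the correlation of log2 CPM. For GA2OX6 they were the Aux/IAA repressor genes of auxin response IAA2 (Pearson r 0.9991) and IAA13 (0.999) and the uncharacterised AT2G36220 (0.9991), out of 18884 genes searched. For GA2OX8 they were AT4G12410, annotated as a SAUR-like auxin-responsive gene (0.9984), AT1G09932, annotated in the phosphoglycerate mutase family (0.9983), and GA2OX6 itself (0.9982). These correlations rest on 6 libraries in 2 groups and describe mainly the shared difference between the groups. AT4G12410 had 15.6 CPM with IAA and 1.06 CPM in mock.

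The rest of the gibberellin pathway gave no call. Of 50 genes in 7 lists, 37 were tested. In edgeR 0 were called higher and 0 lower, beside 3.24% and 0.991% of all genes tested. At such shares, 0 of 37 does not set these genes apart from genes at large. Before adjustment 5 had a higher and 6 a lower level with edgeR p under 0.05, beside 9.88% and 7.57% of all genes tested. DESeq2 called 2 higher and 4 lower of the 38 it gave an adjusted p, beside 5.14% and 2.63% of all its genes. With limma-voom the counts were 0 higher and 1 lower, beside 3.04% and 0.88%. In the list of other inactivating enzymes, 0 of 3 tested were called, with a median log2 change of -0.02, beside a median over all genes tested of -0.01. ELA1 (CYP714A1), a cytochrome P450 that inactivates gibberellins, had a log2 change of -0.59 (SE 0.15, adjusted p = 0.0723), and AT5G58660 one of 0.39 (SE 0.17). AT5G58660 is in this list from background knowledge, and RefSeq annotates it only as an oxygenase dependent on 2-oxoglutarate. Of the early synthesis genes 0 of 4 were called, and GA3, the ent-kaurene oxidase gene, had -0.32 (SE 0.08) and GA2, the ent-kaurene synthase gene, 0.12 (SE 0.14).

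Genes of the late synthesis steps, the 20-oxidases and 3-oxidases, gave 0 calls of 4 and of 2 tested. In several of them IAA 1 stood apart from the other IAA libraries, and in some mock 1 was the highest mock library. GA20OX2 had 12.7, 2.85 and 1.92 CPM in IAA libraries 1 to 3 and 8.16, 4.76 and 2.74 CPM in mock libraries 1 to 3. Its log2 change was 0.16 (edgeR adjusted p = 0.954), and without IAA 1 it was -1.13 (adjusted p = 0.258). GA20OX5 had 10.3, 2.12 and 1.92 CPM in the IAA libraries and 0.516, 0.283 and 0.625 CPM in the mock libraries, so that all IAA libraries were above all mock libraries. Its log2 change of 3.32 (SE 0.81) had an edgeR adjusted p of 0.0815, and without IAA 1 it was 2.08 and called (adjusted p = 0.0191). GA3OX1, which makes the active hormone, had 33.6, 9.37 and 10.5 CPM with IAA and 36.1, 22.9 and 15.7 CPM in mock. Its log2 change was -0.48 (edgeR adjusted p = 0.763), and without IAA 1 it was -1.32 (adjusted p = 0.121). GA3OX2 had a log2 change of 0.99 (SE 0.47, edgeR adjusted p = 0.33), and without mock 3, its highest mock library, one of 1.72 (adjusted p = 0.0502).

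IAA 1 exceeded both other IAA libraries at least 3-fold in GA2OX7 and in 5 of the 37 pathway genes tested: GA20OX1, GA20OX2, GA20OX3, GA20OX5 and GA3OX1. Over all genes tested 135, or 0.683%, met that rule, which was chosen after the values were seen. GA2OX8 and GA2OX6 did not share this feature, with 16.9 and 67.1 CPM in IAA 1. Mock 1 was the highest mock library in GA20OX1, GA20OX2, GA20OX3 and GA3OX1, but not in GA20OX5 or GA2OX7. In GA3OX1 mock 1 stood at 36.1 CPM, above IAA 1 at 33.6 CPM. With the replicate number as a block the log2 change of GA3OX1 was -0.64 (edgeR adjusted p = 0.276).

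**Figure D4:**
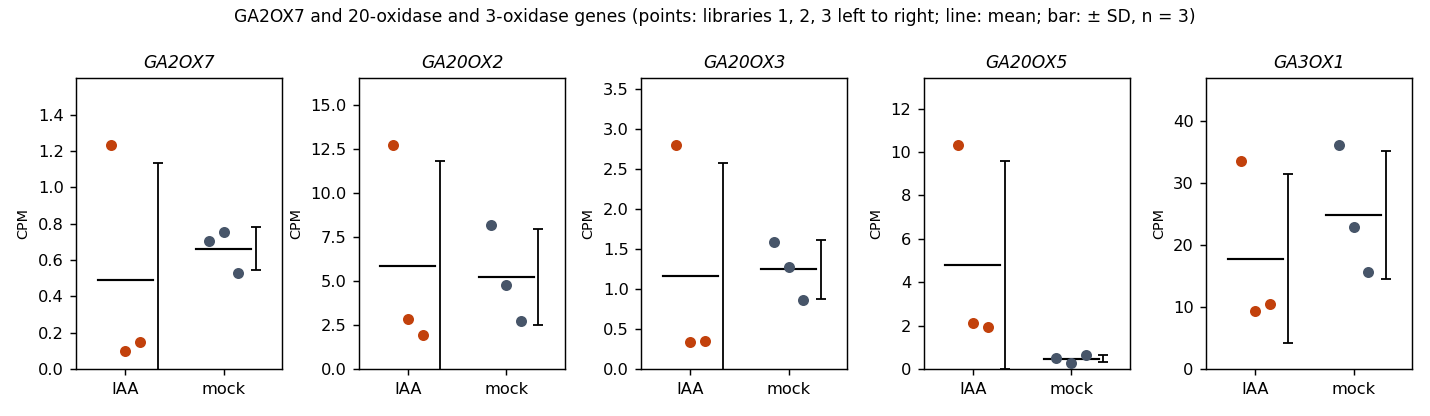
CPM of GA2OX7 and of 4 synthesis genes (vertical axis from 0, its own scale per gene) in the IAA and mock libraries, with means and SDs. The library IAA 1, the leftmost IAA point, is at least 3-fold above the other IAA libraries in each of the 5 genes.

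Receptor, DELLA and associated signalling genes gave 0 calls of 13 tested, with a median log2 change of -0.02. Among them GID1A had -0.645 (SE 0.19, edgeR adjusted p = 0.131) and GID1B 0.30 (SE 0.08, adjusted p = 0.103). RGA, a DELLA repressor of growth, had 135 ± 12.9 CPM with IAA and 137 ± 7.61 CPM in mock (SD, n = 3), and SEC, an O-GlcNAc transferase that modifies DELLA proteins, 54.4 ± 8.93 CPM with IAA and 62.1 ± 9.01 CPM in mock. Among the GASA genes, a family named for its response to gibberellin, 0 of 8 tested were called. GASA4 had a log2 change of -0.05 (SE 0.19) and GASA1 one of -0.20 (SE 0.28). Changes further from none were seen in GASA5, at 1.61 (SE 0.42, edgeR adjusted p = 0.0823), and in GASA14, at -1.075 (SE 0.43, adjusted p = 0.272). The furthest was that of AT1G22690, at -2.52 (SE 1.45, edgeR adjusted p = 0.449). It had 0, 12 and 0 counts in IAA libraries 1 to 3 and 48, 1 and 23 in mock libraries 1 to 3. Of 3 transporter genes 0 were called, although NPF3.1, a gibberellin carrier of the root, had 2.51 ± 0.829 CPM with IAA and 5.35 ± 0.299 CPM in mock without overlap (log2 change -1.09, SE 0.25, edgeR adjusted p = 0.0574). Its call was made without the low-count filter (adjusted p = 0.043), by DESeq2 (0.00725), by limma-voom (0.047) and without IAA 1 (0.00817). SWEET13 had a log2 change of -0.28 (SE 0.47), and without IAA 1 one of -0.97 (edgeR adjusted p = 0.207).

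**Figure D5:**
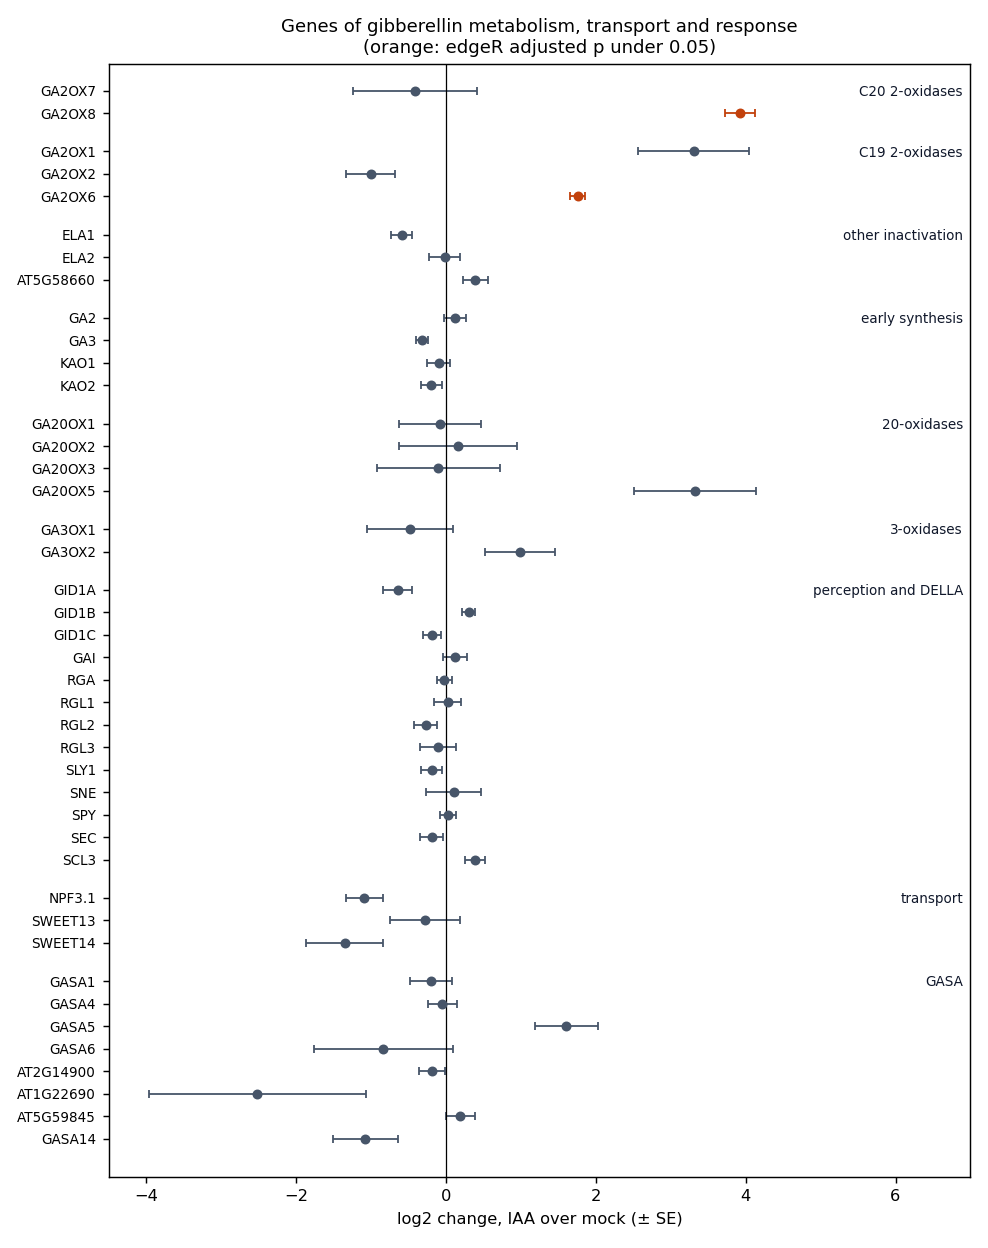
Log2 change, IAA over mock, with its SE for the 5 gibberellin 2-oxidases and 37 other pathway genes tested, grouped by role (C20 and C19 name the class that takes earlier precursors and the class that takes active forms). GA2OX8 and GA2OX6 are the called genes, and GA2OX1 and GA20OX5 lie at log2 changes of 3.31 and 3.32 with wide errors.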

How the data were processed

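The deposited table gives raw counts per gene, as whole numbers without normalization, 1 column per library with the technical runs already combined. The submitters' processing notes name TAIR10 as the build and, among the tools, STAR 2.5.2b and DESeq2 1.26.0. How reads were assigned to genes, with which annotation and strand setting, is not given in the sources used here. The authors also deposited a comparison for 24598 genes with a mean normalized signal, a log2 fold change with its SE, the Wald score and p-values, per the file headers.

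Counts were tested with edgeR 4.0.16 in R 4.3.3 (robust quasi-likelihood, TMM, filterByExpr, group as the only term), and 19778 genes entered. The SE is the absolute log2 change divided by the square root of F. Alternatives used DESeq2 1.42.0, limma 3.58.1, other scalings, filters, terms and thresholds, and each library left out. On simulated counts for this comparison (19533 genes), the test recovered 62.8% of the changes set at a log2 of 1 and 90.6% of those set at 2. The changed genes were drawn at random over the range of levels. These rates are therefore averages and not those of members with few counts. Permutation tests used SciPy 1.17.1. Levels per kilobase use the union of RefSeq exons. Gene positions and sequence come from RefSeq TAIR10.1, the reference at hand, matched by locus for all 7 members. Exact intervals cover counting error only. In the pathway lists each called gene was to be named, or else the 2 with the highest mean CPM, and for each called member the 3 genes with the highest correlation among genes whose average log2 CPM was 0 or more. GID1A, GID1B, GASA5, GASA14, AT1G22690, GA20OX1 and GA20OX3 lie outside this rule and were chosen after their values were seen. Members and lists were chosen with earlier results of these data known.

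Over all genes tested, same-numbered IAA and mock libraries did not consistently deviate together. The correlations were 0.091, -0.449 and 0.202 for numbers 1 to 3, and no replicate block was used in the main test. In GA20OX1, GA20OX2, GA20OX3 and GA3OX1, however, library 1 was the highest in both groups.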

Additional observations from a re-analysis of the deposited data

How the results depend on the processing

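GA2OX8 and GA2OX6 were called higher under all 17 alternatives, with log2 changes of 3.77 to 4.11 and 1.69 to 1.80 over the libraries left out in turn. GA2OX1 was also called with no low-count filter (log2 change 3.32) and with DESeq2 (3.38), and ranged from 2.76 to 3.89 with a library left out. GA2OX7 ranged from -2.39, called without IAA 1, to 0.0609 without IAA 2. GA2OX1 and GA2OX7 were not tested under the stricter filter of 1 CPM and 10 counts in 3 libraries. Members called lower ranged from 0 to 1, the 1 being GA2OX7 without IAA 1, and members called higher from 2 to 3. Over all genes, 641 were called higher and 196 lower. DESeq2 called 1096 higher and 560 lower, the photosynthesis share as a term 416 and 126, an adjusted p under 0.01 gave 272 and 39, and a 2-fold minimum 381 and 92. Leaving out a library gave 260 to 839 higher and 47 to 433 lower. The higher calls were 260 without mock 1, 326 without IAA 2 and 370 without mock 2, and the lower calls 433 without IAA 1, 48 without IAA 2, 95 without IAA 3 and 47 without mock 1. Among pathway genes DESeq2 called 2 higher (GA20OX5 and GASA5) and 4 lower (ELA1, GID1A, GASA14 and NPF3.1), and no filter and limma-voom each 1 lower, NPF3.1. Leaving out a library gave 0 to 1 higher and 0 to 2 lower. The causes were not tested. With the replicate number as a block, 462 genes were higher and 149 lower, and the block changed no call of a member or pathway gene. Depth limits GA2OX3 and GA2OX4, which had at most 17 counts in a library.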
